A study of Homo sapiens with 21 samples.

Results

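The genes described here are the expressed LINC genes of 786-O cells, an established line from human clear cell renal carcinoma that lacks functional VHL. LINC followed by a number is the default symbol for a long intergenic RNA that is not known to encode a protein. A gene was included when its symbol was LINC and digits alone and its summed estimated read count was at least 10 in at least 3 of the 9 RNA libraries. Of 1435 such symbols with a transcript in the files, 131 met this rule, among 13581 genes of any kind that met it and 26809 in all. The genes were thus chosen by their counts, over all libraries regardless of group, so the levels are given as a description without a test. All 9 libraries came from the same cell line and from cells infected with a guide RNA for gene editing. The 3 controls carried the control guide sgCtrl and are labelled JMJD6 WT, and the 6 knockout libraries carried the guide sg2 or sg4 against JMJD6, 3 libraries each, and are labelled JMJD6 KO. The treatment text of the labels describes siRNA transfection, while titles, genotype and RNA extraction name guides, and the latter were followed. JMJD6 is a 2-oxoglutarate-dependent oxygenase that has been linked to chromatin and RNA splicing. The labels do not say whether the knockout cells were a pool or a clone, nor whether the triplicates were separate cultures, so the p-values measure only the spread between these libraries. The series also holds ChIP-seq peaks on another genome build than the gene table used here, and they were not used here.

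Long intergenic RNAs are made by RNA polymerase II and many are spliced and polyadenylated like mRNA. They are usually less abundant than mRNA and more restricted to particular tissues, and many are retained in the nucleus. Some act on genes near their own locus and some act elsewhere, while for most no function is known.

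The libraries held from 14224263 to 16300347 estimated counts. JMJD6 mRNA fell with both guides, from 42.3 ± 1.88 CPM (counts scaled to library size) in the controls to 16.8 ± 0.651 with sg2 and 12.3 ± 1.91 with sg4 (SD, n = 3 each), and each knockout library lay below every control. The mean log2 fold change was −1.56 ± 0.086 (SE, edgeR adjusted p = 5.41e-12). The cells expressed 9 of 10 listed renal carcinoma and tubule markers with at least 10 counts in a library, among them PAX8, PAX2, VIM and EPAS1. The tenth, NDUFA4L2, was not analysed here, and CA9, a target of hypoxia-inducible factors, had between 6 and 22 counts. Of 7 leukocyte markers CD3E was at 0 in all libraries, of 4 endothelial markers CDH5 was at 0, and none of the endothelial markers reached 10 counts. Markers of fibroblasts summed to between 375 and 1208 counts in a control and between 240 and 449 in a knockout library, with 298 counts of COL1A2 in control 1. Markers of airway epithelium summed to between 9 and 68 counts in a control and between 72 and 253 in a knockout library. Leukocyte markers, mostly CSF1R, summed to between 42 and 50 against between 62 and 87 counts, and neural markers, mostly SYT1 and SNAP25, to between 292 and 304 against between 209 and 264. Short transcripts were relatively scarcer in control 3 and more abundant in sg4 libraries 2 and 3: the log2 level moved by 0.06, −0.04 and −0.06 for each doubling of transcript length in these 3 libraries, against between −0.00 and 0.02 in the other 6.

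The expressed LINC genes were few and mostly of low abundance. Their median level in the controls was 3.005 TPM (a level per transcript length), against 19.98 TPM for all genes that met the same count rule. With the control guide 27 of the 131 genes were at 10 TPM or more, 88 between 1 and 10 TPM and 16 below 1 TPM. The 15 most abundant held 51.0% of the summed TPM of all 131. That sum was 952.2 ± 36.04 TPM with the control guide, 886.9 ± 35.5 with sg2 and 850.4 ± 25.3 with sg4 (SD, n = 3 each). As a share of all estimated counts the genes made up between 0.0844% and 0.0915% in a control and between 0.0776% and 0.0858% in a knockout library, so the groups overlapped in this share. In summed TPM they did not, with between 922.2 and 992.2 in a control and between 830.6 and 915.0 in a knockout library. TPM was also lower over genes in general. On log2(TPM + 0.1) the median fold change over 13530 genes tested below was −0.04 with sg2 and −0.09 with sg4. For the LINC genes among them it was −0.08 and −0.22. In bulk RNA, fewer cells that express a gene and less RNA per cell cannot be told apart. Every one of the 131 had at least 1 count in every library, and 94 reached 10 counts in all 9.

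LINC00673, also listed as SLNCR1, stood at the top with 66.7 ± 2.19 TPM in the controls, on chromosome 17. LINC01116, which lies on chromosome 2, followed with 60.5 ± 5.54 TPM, and the ranges of the 3 control libraries overlapped between both genes. LINC03011 on chromosome 7 came next with 43.2 ± 7.97 TPM and lay below LINC01116 in every control. Its rank rested on short transcripts, since it had a mean of 87.7 counts in a control library against 1052 for LINC00673. The next genes, LINC00467 (41.0 ± 4.49 TPM), LINC01508 (36.1 ± 5.46), LINC03033 (34.4 ± 3.81), LINC01139 (32.9 ± 2.68), and LINC02274 (31.0 ± 0.985), each overlapped with the following gene in the order. LINC00839 came after them with 30.4 ± 4.75 TPM, and its 3 controls lay above those of LINC00958 (25.7 ± 2.11 TPM). Below it stood LINC02482, LINC01320, LINC00205, LINC02593 and LINC02604, from 19.0 ± 3.37 down to 15.7 ± 5.19 TPM, whose ranges ran into each other (SD, n = 3 throughout). LINC02482 was a level on few reads, with a mean of 25.3 counts in a control.

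**Figure D1:**
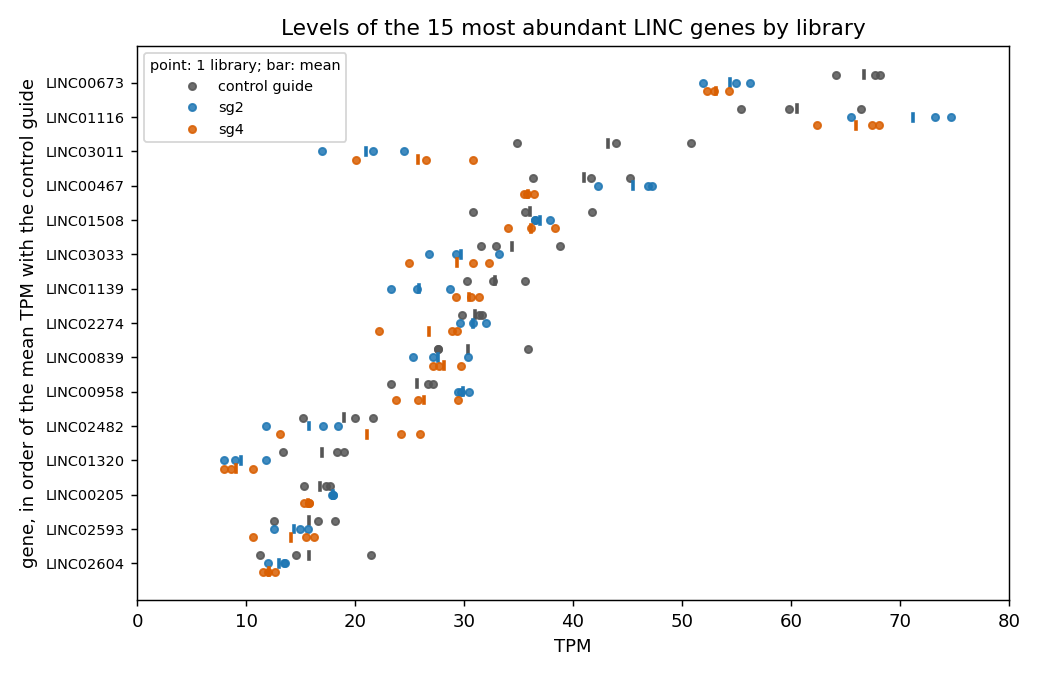
Level in TPM of the 15 most abundant LINC genes in each of the 9 libraries, with 1 point per library and a bar at the mean of 3. LINC00673, LINC03011 and LINC01320 lie lower in every knockout library than in every control, while most of the other genes overlap between groups.

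At the threshold of the rule, the members with the fewest reads were LINC02328, LINC00944 and LINC01023, whose library ranked 3 by count had 10, 10 and 11 counts. Just outside it lay LINC02878, LINC00115 and LINC01186, each with 9 counts in the library of that rank. LINC00513 and LINC00842 met the rule through knockout libraries alone, as 0 of their 3 controls reached 10 counts. LINC00513 had 7, 7 and 8 counts in the controls and from 14 to 22 in the knockout libraries, a difference that the rule favours.

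Knockout with either guide was set against sgCtrl to find the LINC genes that changed with the loss of JMJD6, on the log2 fold change averaged over both guides. Of the 131 genes 129 passed the filter on low counts, and LINC00944 and LINC02328 did not. LINC02532, LINC02591, LINC02432, LINC01320, LINC03011, LINC00863, LINC01000 and LINC00673 fell, and LINC01116, LINC01711, LINC01605 and LINC02985 rose (quasi-likelihood test of edgeR, p adjusted by Benjamini-Hochberg over 13530 genes and below 0.05). The 8 lower genes were 6.2% of the 129, against 6.95% of all tested genes called lower. The 4 higher genes were 3.1%, against 6.92% of all tested genes called higher. The 12 together were 9.3%, against 13.9%. The median log2 fold change of the 129 was −0.13, against −0.01 for all tested genes. A value below 0 was found for 82 of the 129 (63.6%), against 51.5% of all tested genes. All tested genes were mostly more abundant, and the shares by level are given below. In each of the 19 alternative fits the median of the LINC genes was below 0, from −0.1879 to −0.0821. That of all tested genes was also below 0 in each, from −0.0646 to −0.0013, and the fits share libraries. The summed markers of airway epithelium and of leukocytes were higher in each knockout library than in each control, and those of 4 neural genes were lower. Among the leukocyte markers CSF1R alone was higher throughout, with 30 to 37 counts in a control and 49 to 70 in a knockout library. CD79A went the other way, from 2 or 3 counts to 0. Of the neural markers, SYT1 and SNAP25 each overlapped between the groups. The part of these markers in the LINC changes was not tested.

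**Figure D2:**
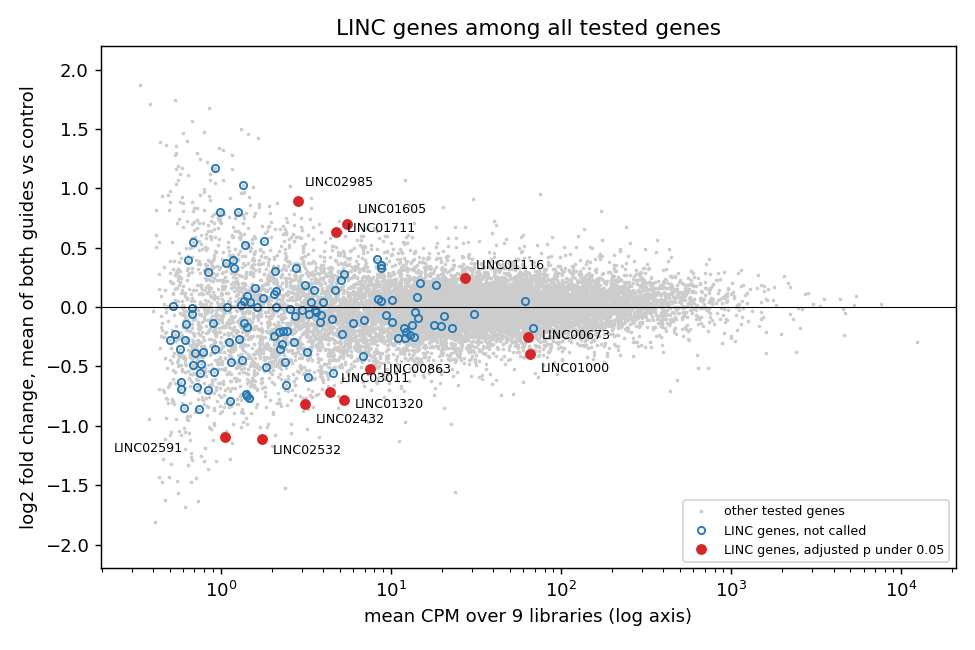
Log2 fold change of knockout over control, averaged over both guides, by the mean CPM over 9 libraries (log axis), with LINC genes in colour over all other tested genes in grey. The 12 called LINC genes lie between 1 and 100 CPM, and 4 other genes beyond 2.2 on the log2 scale are outside the axis.

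Since LINC genes were weakly expressed, the calls were set beside those of other genes in the same range of mean CPM. The top range, 10 CPM and over, has no upper limit, so levels within it were not matched. Of 27 LINC genes under 1 CPM 0 were called in either direction by edgeR, against 0.778% called higher and 2.02% lower among the other genes of that level. DESeq2 also called 0, and 1 passed at an unadjusted p under 0.05 by edgeR. For these 2 counts the share of other genes of that level was not taken. Of these 27, LINC00513 was called by edgeR with a filter of 1 CPM in 3 libraries, and LINC00513 and LINC02188 by limma on log2 TPM. Between 1 and 3 CPM 1 of 45 rose and 2 fell, or 2.22% and 4.44%, against 0.683% and 2.05%. Between 3 and 10 CPM 2 of 33 rose and 4 fell, or 6.06% and 12.1%, against 1.8% and 4.58%. At 10 CPM and over 1 of 24 rose and 2 fell, or 4.17% and 8.33%, against 9.08% and 8.33%. Between 1 and 10 CPM the shares called were above those of other genes in both directions, on 9 called genes, and no test of that difference was made. The precision was close to that of other genes in the same range below 3 CPM. Between 3 and 10 CPM it was somewhat lower than theirs, with a median CV (SD over mean) in the controls of 0.187 against 0.138. Above 10 CPM, where levels were not matched, it was also lower than that of other genes. The median SE of the log2 fold change was 0.48 under 1 CPM, 0.31 between 1 and 3, 0.19 between 3 and 10 and 0.11 above. For other genes it was 0.46, 0.31, 0.17 and 0.07. Under 1 CPM the median log2 fold change of LINC genes was −0.35, smaller in size than the median SE, against −0.11 for other genes. It was −0.07 against −0.08 between 1 and 3 CPM, −0.04 against −0.05 between 3 and 10 CPM, and −0.15 against 0.00 above. Between 1 and 10 CPM the medians of LINC genes and other genes thus lay within 0.01 of each other. Values below 0 made up 77.8% of LINC genes under 1 CPM, against 59.1% of other genes. The shares were 53.3% against 56.7% between 1 and 3 CPM and 57.6% against 58.7% between 3 and 10. Above, they were 75.0% against 48.8%.

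**Figure D3:**
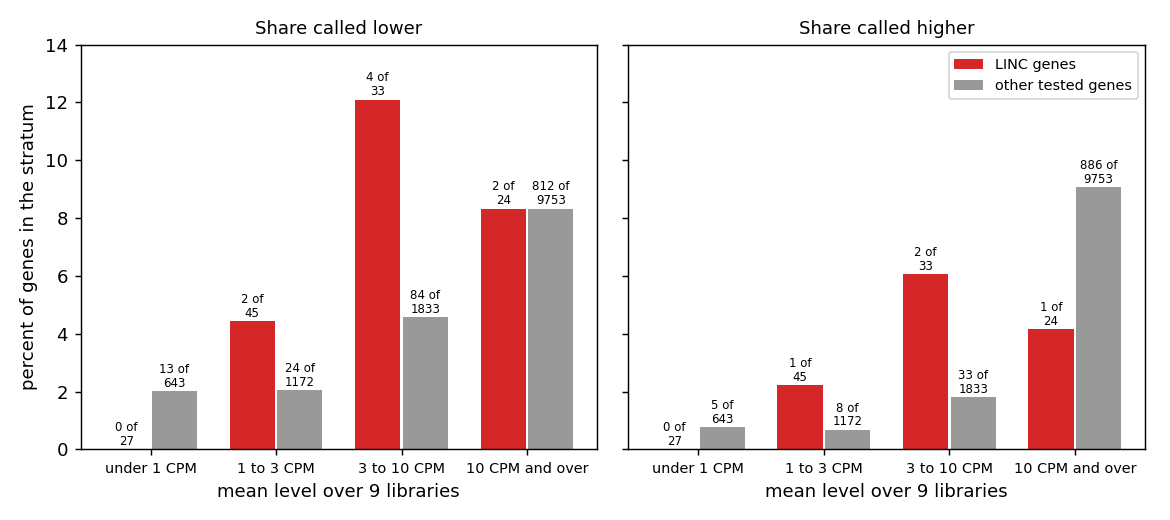
Percent of LINC genes and of other tested genes called lower (left) and higher (right) in the mean of both guides, by mean CPM over 9 libraries, with the number called and the number of genes above each bar. The LINC bars are taller than the grey bars between 1 and 10 CPM and rest on at most 4 genes each.

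LINC00673 was the most abundant of the genes that fell, and its change was small. It had 69.0, 74.0 and 70.7 CPM in the controls, 61.3, 60.8 and 56.8 with sg2, and 59.7, 60.4 and 60.5 with sg4. The groups did not overlap, and the knockout libraries lay close together. The log2 fold change was −0.25 ± 0.057 (SE, edgeR adjusted p = 0.00407), a 1.19-fold decrease, and it was called with sg2 (−0.26, edgeR adjusted p = 0.0130) and with sg4 (−0.24, 0.0209). It was called in each of the 19 alternative fits, with values from −0.31 to −0.22.

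LINC01320 and LINC02432 were the other genes called lower with each guide. Of all tested genes 2.22% were called lower with both guides, against these 3 of 129 LINC genes, or 2.33%, and 0 LINC genes were called higher with both by edgeR or DESeq2, against 2.76%, while 7 (5.43%) were higher with both at an unadjusted p under 0.05, against 7.3%. Both guides were set against the same 3 controls. LINC01320, on chromosome 2, had 8.01, 5.93 and 8.10 CPM in the controls, 3.60, 4.07 and 5.32 with sg2, and 4.78, 3.70 and 4.08 with sg4. Every knockout library lay below the lowest control, which was control 2. Its log2 fold change was −0.79 ± 0.17 (SE, edgeR adjusted p = 0.00326), or 1.72-fold, with −0.76 for sg2 and −0.81 for sg4. LINC02432, on chromosome 4, had 4.04, 5.15 and 3.98 CPM in the controls, 2.36, 2.35 and 2.73 with sg2, and 1.82, 2.97 and 2.70 with sg4. It fell by 0.82 ± 0.22 on the log2 scale (SE, edgeR adjusted p = 0.0127), by 0.82 with each guide, and the groups did not overlap. Without control 2, the highest library, it stood at −0.69 (edgeR adjusted p = 0.0904).

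LINC02532 and LINC02591 had the largest decreases, on few reads. LINC02532, on chromosome 6, had 49, 38 and 33 counts in the controls, 18, 10 and 21 with sg2, and 31, 21 and 14 with sg4. This was 2.71 ± 0.517 CPM with the control guide, 1.09 ± 0.361 with sg2 and 1.42 ± 0.514 with sg4 (SD, n = 3 each), with every knockout library below every control. The log2 fold change was −1.11 ± 0.30 (SE, edgeR adjusted p = 0.0129), and −0.94 without control 1 (edgeR adjusted p = 0.110). LINC02591, on chromosome 1, had 26, 24 and 23 counts in the controls and between 9 and 15 in the knockout libraries, and the groups did not overlap in CPM. Its log2 fold change was −1.09 ± 0.33 (SE, edgeR adjusted p = 0.0267). Without any 1 of the 3 controls the edgeR adjusted p was between 0.0681 and 0.117, and without sg4 library 2 or 3 it was 0.0558 and 0.0509, and without sg2 library 3 it was at the threshold, with the size between −1.13 and −1.02.

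LINC03011 had 7.003, 6.06 and 4.69 CPM in the controls, 2.91, 3.28 and 3.96 with sg2, and 3.02, 4.56 and 3.95 with sg4. The lowest control lay just above the highest knockout library. It fell by 0.72 ± 0.19 on the log2 scale (SE, edgeR adjusted p = 0.0128), and by 0.58 without control 1 (edgeR adjusted p = 0.121). LINC00863, on chromosome 10, had 8.42, 9.12 and 10.6 CPM in the controls, 5.83, 6.21 and 5.53 with sg2, and 7.17, 7.66 and 6.91 with sg4. All sg2 libraries lay below all sg4 libraries, and these below all controls. The log2 fold change was −0.52 ± 0.14 in the mean of both guides (SE, edgeR adjusted p = 0.0104), −0.68 with sg2 (0.00723) and −0.37 with sg4 (0.147), and the guides were not called different from each other (0.549). Without control 3 the mean was −0.43 (edgeR adjusted p = 0.0947). LINC00863 overlaps NUTM2A-AS1 by gene span, and whether their transcripts share sequence was not examined. Reads from any sequence that both share cannot be told apart without a strand setting. NUTM2A-AS1 itself had a log2 fold change of 0.20 ± 0.23 (SE, edgeR adjusted p = 0.621).

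LINC01000, on chromosome 7, had the most reads of all called LINC genes in the controls, through a transcript of 10263 bases, at 15.1 TPM in the controls. It had 78.8, 56.4 and 99.8 CPM in the controls, 60.8, 53.9 and 59.8 with sg2, and 53.1, 71.9 and 57.0 with sg4. The controls spread widely, and control 2 lay among the knockout libraries. The log2 fold change of −0.40 ± 0.11 (SE, edgeR adjusted p = 0.0151) was −0.19 without control 3 (0.274) and −0.39 without control 1 (0.0584), and DESeq2 gave −0.40 with an adjusted p of 0.167. Control 3 was also the library in which long transcripts were relatively most abundant, and after removal of the trend with length the value was −0.34 (edgeR adjusted p = 0.0213). The 5 tested genes whose log2 CPM followed it most closely over the 9 libraries were FER1L4, EPOR, RNF207, IGFN1 and LINC00174, with Pearson's r from 0.949 to 0.964. These values describe 9 libraries that share the same groups and the same trend with length.

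**Figure D4:**
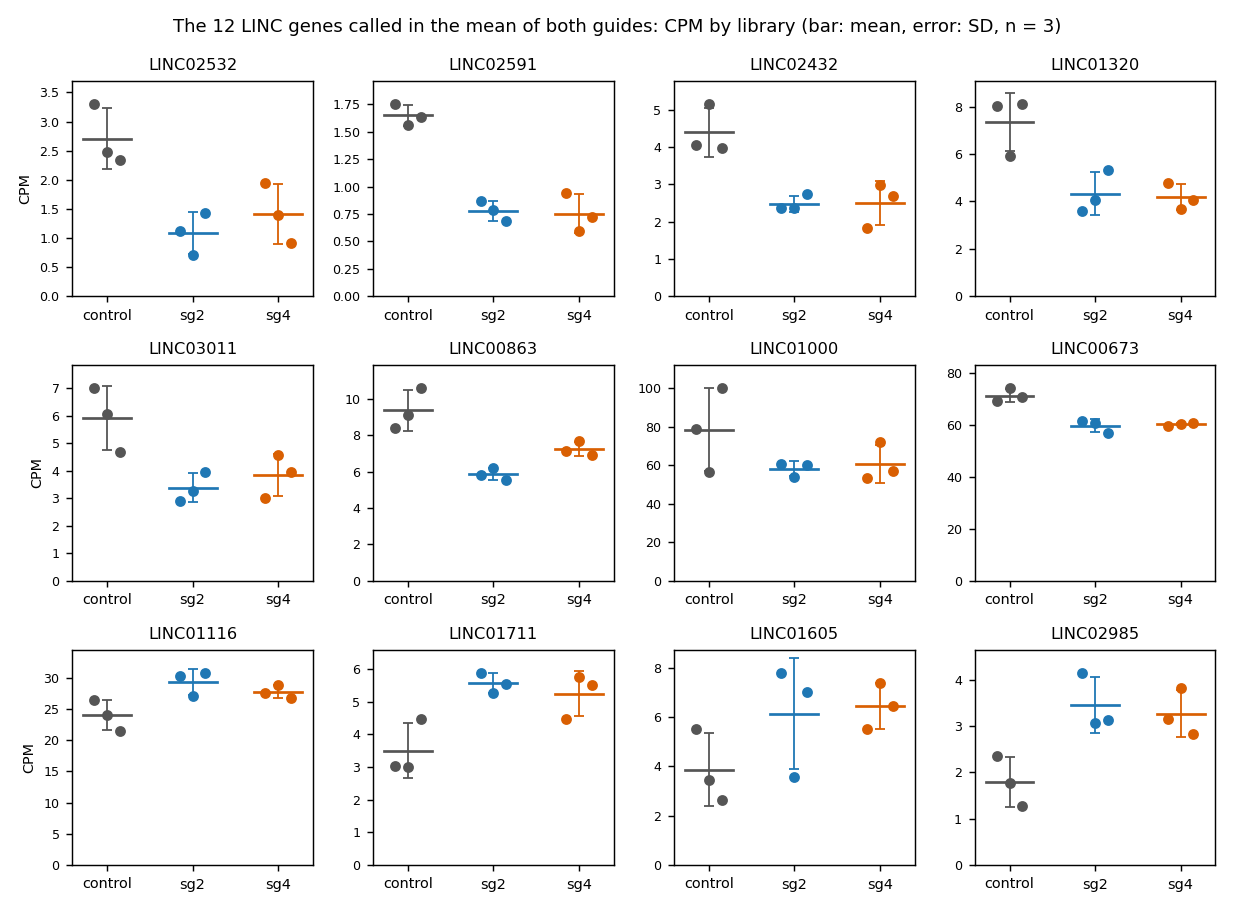
CPM of the 12 LINC genes called in the mean of both guides in each library, with the mean and SD of 3 libraries per group. For LINC01000, LINC01711 and LINC01605 a control library lies within the range of the knockout libraries, and for the other 9 genes the groups do not overlap.

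LINC01116 was the most abundant of the genes that rose. It had 26.5, 24.1 and 21.5 CPM in the controls, 30.3, 27.0 and 30.9 with sg2, and 27.6, 28.9 and 26.8 with sg4. Every knockout library lay above every control, by a narrow margin over control 1. Its log2 fold change of 0.25 ± 0.085 (SE, edgeR adjusted p = 0.0489) was 0.18 without control 3 (0.281), and was called in 5 of 19 alternative fits. After removal of the length trend it was 0.19 (edgeR adjusted p = 0.131), and DESeq2 gave 0.25 with an adjusted p of 0.0501.

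LINC02985, on chromosome 12, had 2.36, 1.76 and 1.28 CPM in the controls, 4.15, 3.07 and 3.14 with sg2, and 3.14, 3.83 and 2.83 with sg4. The groups did not overlap, and the log2 fold change was 0.90 ± 0.26 (SE, edgeR adjusted p = 0.0197), or 1.86-fold. Without control 2, control 3 or sg2 library 1 the edgeR adjusted p was 0.0626, 0.127 and 0.0547. LINC01711, on chromosome 20, had 3.03, 2.998 and 4.48 CPM in the controls, 5.89, 5.28 and 5.53 with sg2, and 4.46, 5.75 and 5.53 with sg4. Only sg4 library 1 was at the level of control 3. It rose by 0.63 ± 0.19 on the log2 scale (SE, edgeR adjusted p = 0.0272). Without control 1, control 2, sg2 library 1 or sg4 library 2 the edgeR adjusted p was 0.141, 0.129, 0.0571 and 0.0504, and after removal of the length trend it was 0.0557.

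LINC01605, listed also as LincDUSP and on chromosome 8, varied more, relative to its mean, within the controls and within sg2 than any other of the 12 called genes. It had 5.52, 3.45 and 2.63 CPM in the controls, 7.81, 3.57 and 7.03 with sg2, and 5.53, 7.40 and 6.45 with sg4. With sg2 library 2 at the level of control 2, the groups overlapped. The log2 fold change was 0.70 ± 0.23 (SE, edgeR adjusted p = 0.0426). Without control 2, control 3, sg2 library 1, sg2 library 3, sg4 library 2 or sg4 library 3 the edgeR adjusted p was between 0.0631 and 0.232, with values between 0.49 and 0.70.

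**Figure D5:**
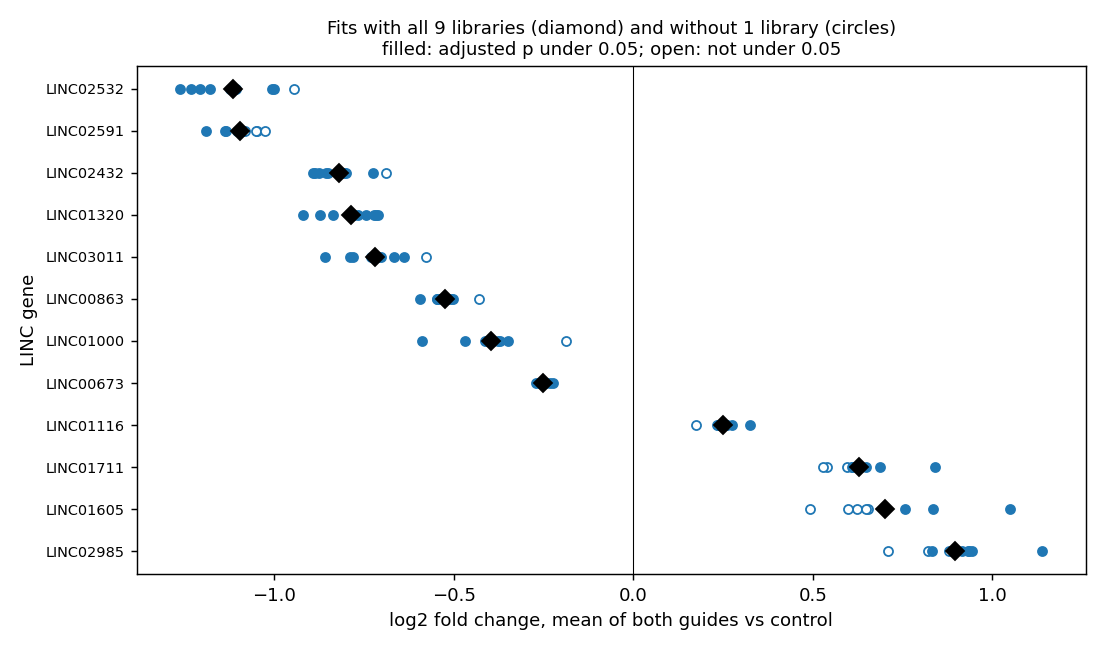
Log2 fold change of the 12 called LINC genes with all 9 libraries (diamond) and with 1 library left out (circles), filled where the edgeR adjusted p was under 0.05. LINC00673 and LINC01320 are filled throughout, LINC02591, LINC01116, LINC01711, LINC01605 and LINC02985 have 3 or more open circles, some of them hidden behind other symbols, and no circle crosses 0.

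Which genes were called varied with the libraries used, while none of the 12 called genes changed direction in these fits. Without control 1 there were 4 genes called lower and 4 higher, without control 2 there were 8 and 0, and without control 3 there were 5 and 1. Calls over all tested genes also became fewer in these 3 fits, at 3.18% lower and 3.68% higher without control 1, 5.21% and 4.95% without control 2, and 3.94% and 3.68% without control 3. Without sg2 library 1 there were 8 lower and 0 higher, without sg2 library 3 there were 9 and 2, without sg4 library 2 there were 8 and 1, and without sg4 library 3 there were 7 and 2, while between 4.96% and 6.75% of all tested genes were lower and between 5.18% and 6.96% higher. A fit without control 3 and sg4 libraries 2 and 3 together, chosen after seeing the data, left 1 sg4 library, so its calls are not given. The median log2 fold change in the mean of both guides was then −0.19 for LINC genes, against −0.01 for all tested genes. Control 1 is the library with 298 counts of COL1A2, and the part of other cells in these LINC genes was not tested.

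The groups also failed to overlap for genes that were not called. All 6 knockout libraries lay below all controls in CPM for 12 LINC genes (9.3%), against 7.18% of all tested genes, and above them for 5 (3.88%), against 7.76%. Among the 12 the genes without a call were LINC03009, LINC01547, LINC01881, LINC01011 and LINC01303, with log2 fold changes from −0.76 to −0.26 and edgeR adjusted p from 0.0984 to 0.357. Among the 5 they were LINC00941 (0.40 ± 0.14), LINC01134 (1.03 ± 0.37) and LINC00513 (1.17 ± 0.41), given as log2 fold changes with SE, with edgeR adjusted p from 0.0535 to 0.0642. LINC00941 had 88, 107 and 106 counts in the controls and from 123 to 146 in the knockout libraries. These 8 names were chosen from their values. LINC00513 met the count rule through knockout libraries alone, which favours such a difference. The estimates of uncalled genes ran from −0.86 for LINC01106 to 1.17 for LINC00513. At an unadjusted p under 0.05, 28 of the 129 genes (21.7%) passed in the mean of both guides, against 26.9% of all tested genes.

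Each guide was also set against the same 3 controls. With sg2 alone 7 LINC genes fell and 3 rose, against 5.36% and 5.0% of all tested genes, or 5.43% and 2.33% of the 129. In either direction this was 7.75% of the 129, against 10.4% of all tested genes. With sg4 alone 4 fell and 0 rose by edgeR, against 3.78% and 4.65% of all tested genes and 8.43% in either direction, and 24 (18.6%) passed at an unadjusted p under 0.05, against 23.3% of all tested genes. With sg2 23 (17.8%) passed that threshold, against 24.7%. Limma on log2 TPM called 2 higher with sg4, against 1.32% of all tested genes, and DESeq2 called 0, against 4.91%. The median log2 fold change of the 129 was −0.11 with sg2 and −0.15 with sg4. The median with sg2 turned to 0.01 without control 1, so its direction rested on that library. LINC01963, on chromosome 2, was called with sg2 and not in the mean of both guides. It had 6.60, 8.21 and 7.18 CPM in the controls, 9.80, 10.6 and 10.8 with sg2, and 7.29, 8.06 and 10.1 with sg4, a log2 fold change of 0.50 with sg2 (edgeR adjusted p = 0.0402) and 0.21 with sg4 (0.469). The sg2 libraries lay above all controls, and sg4 libraries 1 and 2 lay among them. Without control 1 or 3, or without any 1 of the sg2 libraries, the edgeR adjusted p was between 0.0748 and 0.161.

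LINC00342, on chromosome 2, was called with sg4 and not in the mean of both guides. It had 3.97, 3.58 and 4.90 CPM in the controls, 2.98, 3.21 and 4.10 with sg2, and 2.58, 2.38 and 1.64 with sg4. All sg4 libraries lay below all others, while the sg2 libraries overlapped with the controls. The log2 fold change was −0.91 with sg4 (edgeR adjusted p = 0.0298) and −0.28 with sg2 (0.546). The direct difference of sg4 from sg2 was −0.63 (edgeR adjusted p = 0.446). Without control 1, control 3, sg4 library 2 or sg4 library 3 the edgeR adjusted p with sg4 was between 0.0537 and 0.139.

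With sg4 set directly against sg2, 0 of 129 LINC genes were called by edgeR in either direction, against 0.0591% of all tested genes, or 0.0443% higher and 0.0148% lower. At an unadjusted p under 0.05 there were 7 (5.43%), against 9.88% of all tested genes, and DESeq2 called 0. The 7 were LINC00467, LINC01139, LINC01278, LINC00938, LINC00342, LINC02547 and LINC01311, a list chosen from its values. LINC00467 had 130, 156 and 150 counts in the controls, 175, 165 and 177 with sg2 and 144, 138 and 142 with sg4, and the log2 difference of sg4 from sg2 was −0.33 (edgeR adjusted p = 0.442). LINC01139 went the other way, at 0.27 (edgeR adjusted p = 0.438).

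Other classes of long noncoding genes, set apart by their symbols, were fitted in the same model. Of 326 antisense genes 2 rose and 11 fell (0.613% and 3.37%), with a median log2 fold change of −0.07. Of all tested genes 6.92% rose and 6.95% fell, and the classes differ in level. Of 89 divergent transcripts 1 rose and 3 fell (median 0.01), and of 83 genes with a LOC symbol 1 rose and 4 fell (median −0.13). Of 23 microRNA host genes 0 rose and 2 fell (8.7%, median −0.06), and of 5 intronic transcripts 0 rose and 1 fell (20.0%, median −0.48). Of 21 small nucleolar RNA host genes 3 rose and 2 fell (14.3% and 9.52%, median 0.09). The last class was the most abundant, with a median of 16.7 CPM against 2.40 CPM for the LINC genes. The remaining 12854 tested genes, most of them coding, had a median of 31.7 CPM, and 925 rose and 910 fell (median −0.00).

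The genes beside the 12 called LINC genes were taken from the order of the RefSeq gene table. Of 24 distinct nearest tested neighbours, 1 on each side, 2 had a call in the average over both guides, both higher, or 8.33% against 13.9% of all tested genes called in either direction. SOX9, which encodes a developmental transcription factor and is the nearest tested gene on one side of LINC00673, rose by 0.47 ± 0.13 on the log2 scale (SE, edgeR adjusted p = 0.0167) while LINC00673 fell. LINC00511, on its other side, had a log2 fold change of 0.16 ± 0.32 (SE, edgeR adjusted p = 0.809). ZNF703, which encodes a transcriptional regulator and is the nearest tested gene on one side of LINC01605, rose by 0.34 ± 0.089 (SE, edgeR adjusted p = 0.0116), as LINC01605 did. RNF122, the nearest tested gene on its other side, had a log2 fold change of −0.24 ± 0.43 (SE, edgeR adjusted p = 0.781). The nearest tested neighbours of LINC01320, FAM98A and CRIM1-DT, had values of 0.10 ± 0.066 and −0.11 ± 0.20. Those of LINC02432, ZNF330 and IL15, had 0.03 ± 0.082 and 0.25 ± 0.14. All are log2 fold changes with SE, and 0 of these 4 were called by edgeR. LINC02985 lies between BCL7A and MLXIP, at −0.20 ± 0.077 (edgeR adjusted p = 0.0883) and −0.10 ± 0.057 (0.303) on the log2 scale with SE, while LINC02985 itself rose. By gene order and span, 72 of the 131 LINC genes overlap another gene of the table, and for 18 of them that gene was tested.

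The stretch around the start site, from 250 bases before it to 50 after it, was read from the RefSeq table of promoters (GRCh38.p14), which matched 96 of the 131 genes with 109 windows. Of the 12 called genes 6 matched, and LINC02532, LINC02432, LINC01320, LINC01000, LINC01711 and LINC01605 had no entry. Shown here are 2 genes that fell and 2 that rose, to set the start regions of both directions side by side, written 5′ to 3′ on the strand of the gene. Capitals mark the motifs found. Each motif was searched on both strands. They were the box for TATA-binding protein written TATAAA, the promoter element written CCAAT, the core of the GC box written GGGCGG, the E-box written CACGTG, its inner part written ACGTG (which it overlaps), the AP-1 motif written TGACTCA, and the ETS-type motif written CCGGAAG. LINC00673 is at chr17:72592755-72593054 on the minus strand, LINC00863 at chr10:87342486-87342785 on the plus strand, LINC01116 at chr2:176637560-176637859 on the minus strand and LINC02985 at chr12:122063040-122063339 on the plus strand.
LINC00673: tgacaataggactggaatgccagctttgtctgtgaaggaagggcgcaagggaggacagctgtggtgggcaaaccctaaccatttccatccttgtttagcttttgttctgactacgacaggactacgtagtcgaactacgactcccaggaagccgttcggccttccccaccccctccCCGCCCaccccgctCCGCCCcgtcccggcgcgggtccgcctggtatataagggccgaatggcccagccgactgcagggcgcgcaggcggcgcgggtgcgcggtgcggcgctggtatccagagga
LINC00863: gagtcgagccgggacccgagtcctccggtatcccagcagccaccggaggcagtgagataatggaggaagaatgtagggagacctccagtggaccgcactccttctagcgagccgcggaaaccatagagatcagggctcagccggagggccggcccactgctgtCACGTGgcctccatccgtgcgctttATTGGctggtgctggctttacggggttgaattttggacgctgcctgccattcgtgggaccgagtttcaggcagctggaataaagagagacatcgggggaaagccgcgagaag
LINC01116: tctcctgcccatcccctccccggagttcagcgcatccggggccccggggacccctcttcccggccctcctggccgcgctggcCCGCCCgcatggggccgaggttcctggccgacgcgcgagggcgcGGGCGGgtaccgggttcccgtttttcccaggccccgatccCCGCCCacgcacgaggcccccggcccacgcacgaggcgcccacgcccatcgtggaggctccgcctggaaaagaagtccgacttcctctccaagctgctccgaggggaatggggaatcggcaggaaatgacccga
LINC02985: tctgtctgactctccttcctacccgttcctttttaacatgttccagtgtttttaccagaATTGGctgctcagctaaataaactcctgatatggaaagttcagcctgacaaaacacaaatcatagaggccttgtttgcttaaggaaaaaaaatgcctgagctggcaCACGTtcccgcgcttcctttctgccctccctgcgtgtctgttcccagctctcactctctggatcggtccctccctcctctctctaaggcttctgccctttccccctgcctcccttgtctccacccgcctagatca
The windows of LINC00673, LINC00863 and LINC01116 hold 26, 21 and 34 CG pairs, while that of LINC02985 holds 7. GGGCGG occurs in the windows of LINC00673 and LINC01116, which moved in opposite directions. CACGTG occurs in that of LINC00863.

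Over the 109 windows of LINC genes GGGCGG occurred in 50.5%, against 45.0% of 35116 promoter windows in the table and 65.2% of those of tested genes. CCAAT occurred in 44.0%, against 34.6% and 34.8%, and ACGTG in 29.4%, against 21.4% and 25.3%. TATAAA occurred in 13.8%, against 11.5% and 6.34%, and CACGTG in 7.34%, against 7.26% and 9.18%. CCGGAAG occurred in 21.1%, against 10.3% and 16.7%. TGACTCA occurred in 12 windows or 11.0%, against 4.95% and 3.62%, and in 0 of the 7 windows of called LINC genes. The median number of CG pairs was 13, against 14 in all windows and 25 in those of tested genes. A match describes the letters alone, and the annotated start need not be the one used in these cells.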

How the data were processed

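RNA-seq covered 9 libraries of 786-O cells, 3 per group, grouped by their titles. The files deposited by the authors hold a Salmon estimated count, a TPM and an effective length in bases per RefSeq transcript, per the file headers. Each estimated count deposited was a whole number. How Salmon's values became whole, the strand setting and the annotation release are not given in the sources used here. Per the submitters' processing notes the tools included Salmon, DESeq2, STAR 2.5.2b and cutadapt 1.12, and the builds hg19 and GRCh37.

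Of 60422 transcripts 58031 (96.0%) matched the RefSeq gene table of GRCh38.p14, used for names and gene order, and were summed per gene. All genes were fitted in edgeR 4.0.16 (R 4.3.3, limma 3.58.1) with TMM factors and filterByExpr, by the quasi-likelihood test with Benjamini-Hochberg adjustment, 2-sided, over 3 groups. The script was tested on simulated data. Alternatives were other size factors, DESeq2 1.42.0, other filters, limma on log2(TPM + 0.1) and log2(TPM + 1), offsets for length, the replicate number as a block, and leaving out each library. Named genes were the 15 most abundant LINC genes, those called in the mean of both guides or with 1 guide, and genes at the count threshold. The members and lists were chosen with earlier results of these data known. Reads shared with near-identical copies were not separated. The ChIP peak lists and inputs were not used here.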

Additional observations from a re-analysis of the deposited data

How the results depend on the processing

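In the mean of both guides, 8 LINC genes were called lower and 4 higher, against 6.95% and 6.92% of all tested genes. With the replicate number as a block 8 were lower and 2 higher, against 5.64% and 5.65%. With sg4 2 then fell, against 2.88%. No sign of pairing by the titles' numbers was seen, and the labels do not state any. Correlations between groups ranged from −0.265 to 0.102 for same-numbered libraries and from −0.141 to 0.225 for the others. Removing the length trend gave 2 higher, against 7.41% of all tested genes. A fit without control 3 and sg4 libraries 2 and 3, chosen after seeing the data, left 1 sg4 library, so its calls are not given. The median log2 fold change of the LINC genes was then −0.078 with sg2 and −0.235 with sg4. For all tested genes it was −0.0026 and −0.0099. For sg4 the fit without a filter on low counts gave 7 lower and 2 higher, against 3.48% and 4.3% of all tested genes. Limma on log2(TPM + 0.1) gave 9 and 2. Limma on log2(TPM + 1) gave 10 and 2, against 4.88% and 1.32%. Over all genes limma with the smaller pseudocount called 4.9% lower and 1.32% higher with sg4 and, in the mean, 1040 lower and 316 higher, against 941 and 936 by edgeR. Leaving out 1 library gave from 4 to 9 lower and from 0 to 4 higher in the mean. Of all tested genes from 3.18% to 6.75% were lower and from 3.68% to 6.96% higher. With sg2 there were from 2 to 7 lower and from 0 to 4 higher, against 2.83% to 5.93% and 2.54% to 5.71%. With sg4 there were from 0 to 4 lower and from 0 to 2 higher, against 1.78% to 4.09% and 2.51% to 4.86%. The cause was not tested. None of the 14 genes called in the mean or with 1 guide changed sign in the comparison that called it, in these fits. Of genes that met the count rule, 172 did at 5 counts, 99 at 20 and 94 in all 9 libraries. The alternatives for ChIP peaks were not run, since the peaks and the gene table are on different builds. Depth limits the weaker genes: the median LINC gene had 38 counts in a control.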
